A study of Rattus norvegicus with 12 samples.

Results

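The genes described here make or handle cholesterol and fatty acids, and 36 were named for this description, drawn from sterol synthesis and transport, the control of that pathway by sterol regulatory element-binding proteins (SREBPs), and fatty acid synthesis. A probe with a matching gene symbol was found for 32 of the 36, among 9210 named genes and 16546 features tested in all. No probe carried the symbols Hmgcs1, Scd, Lpin1 or Srebf1, and those 4 genes were not analysed here. The 32 genes had 42 probes, of which 41 were measured on all 12 arrays and were averaged for each gene.

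Cells make cholesterol from acetyl-CoA through the mevalonate pathway, which leads to squalene and then, through a chain of sterol intermediates, to cholesterol. When membranes of the endoplasmic reticulum run low in sterol, the escort protein SCAP carries SREBPs to the Golgi, where they are cut and freed to enter the nucleus and switch on the genes of the pathway, and when sterol is plentiful the INSIG proteins hold SCAP back. The brain makes its own cholesterol, since plasma lipoproteins do not cross the blood-brain barrier, and astrocytes supply much of what neurons use.

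RNA was measured in primary cortical neurons of rats in 4 groups of 3 plates. Plates were exposed for 6 h to halothane at 3 MAC (about 3%), isoflurane at 3 MAC (about 4%) or halothane at 1 MAC (about 1%), where MAC stands for minimum alveolar concentration, the usual measure of how potent such a gas is. The controls stayed in air in the same incubator, outside the gas-tight chamber that held the exposed plates, so the anaesthetic and the chamber cannot be told apart in any difference from control. The cells came from fetal brains of 3 pregnant rats on day 17 of pregnancy, were kept 16 days in vitro, and recovered for 6 h after exposure before harvest. The labels give 4 plates from each rat and do not tie a replicate number to a rat, so a rat may have supplied all 4 groups, or only 1 treatment beside its control. In the second case rat and treatment cannot be told apart.

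Each array compared 1 plate, in the Cy5 channel, with a pool of control RNA in the Cy3 channel. The values are log2 ratios of plate over pool, given below for replicates 1, 2 and 3 of a group in that order. The direction and the base of the deposited logarithm are likely rather than stated. Read as plate over pool, the mean linear ratio of the sterol synthesis enzymes over the 3 control arrays had a median of 0.915, where a pool of those plates would give 1, and read the other way it had a median of 1.21. In the opposite direction every higher and lower below would be exchanged, and a base of 2 in place of 10 would divide every log2 difference by 3.32. A ratio gives no level, so these data do not show how much of a transcript, or of a marker of neurons, a plate held, and in a culture of mixed cells a change in the number of cells of a type cannot be told apart from a change of RNA in each cell.

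A pair of arrays stood apart. Replicate 1 of halothane 1 MAC had a median log2 ratio over all features of 0.23 and an SD of 0.818, against medians of -0.01 to 0.01 and SDs of 0.315 to 0.481 on the other 11 arrays. The second control plate differed from the other controls in the genes described here: it was the highest of the 3 controls for 24 of the 32 genes and for 17 of 17 sterol synthesis enzymes, against 5592 of 16085 features. The median range among the 3 controls was 0.95 for those enzymes, on the log2 scale, against 0.36 for all features.

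The comparison of the 2 anaesthetics at 3 MAC carried nearly all of the differences that passed the test. In halothane-exposed plates 15 of the 32 genes were higher than in isoflurane-exposed plates at an adjusted p under 0.05 (limma, moderated test, adjusted over all 16546 features), and none was lower. The background was 3.51% of features called, with 1.03% higher and 2.47% lower. The 15 genes differed by 0.91 to 2.19 on the log2 scale, or 1.87-fold to 4.57-fold, with adjusted p-values of 0.0116 to 0.0450. They comprised 5 of 6 genes of the mevalonate branch, 6 of 11 between squalene and cholesterol, 1 of 4 that control the pathway, 1 of 3 of sterol transport and 2 of 8 of the fatty acid genes. The median difference of the 32 genes was 0.97, against 0.01 for all features, and 27 of the 32 lay above 0, as did 50.9% of features. All 3 halothane arrays lay above all 3 isoflurane arrays for 24 of the 32 genes, where 17.9% of features did, and below them for 2, Fads1 and Npc1, where 19.5% of features did.

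**Figure D1:**
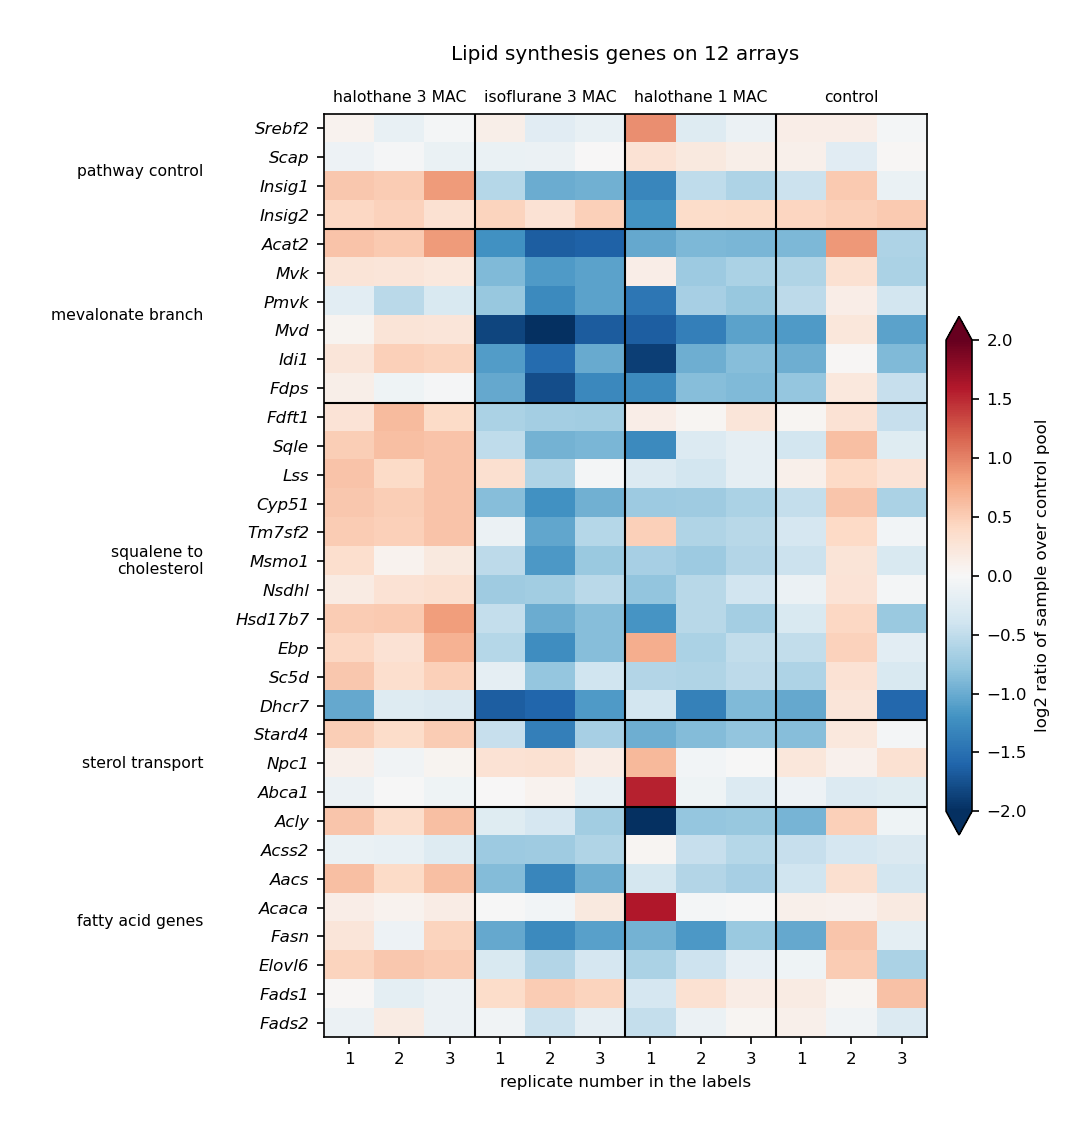
Log2 ratio of plate over control pool for the 32 genes (rows, grouped by role) on each of the 12 arrays (columns, replicate numbers within the 4 groups); red is above the pool, blue below, and 2 values beyond the scale, Mvd at -2.51 in isoflurane replicate 2 and Acly at -2.07 in halothane 1 MAC replicate 1, take the end colour. Most enzyme rows are red in halothane 3 MAC and in control replicate 2 and blue in isoflurane 3 MAC, while Srebf2, Scap and Npc1 stay pale apart from halothane 1 MAC replicate 1.

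In the mevalonate branch the widest difference was that of Mvd, mevalonate diphosphate decarboxylase, which makes the first isoprene unit. Mvd was at 0.06, 0.26 and 0.24 in halothane 3 MAC plates, at -1.83, -2.51 and -1.66 in isoflurane 3 MAC plates, at -1.64, -1.36 and -1.07 in halothane 1 MAC plates, and at -1.14, 0.23 and -1.06 in controls. The halothane 3 MAC arrays lay near the pool with control 2 among them, and the 3 isoflurane arrays were the lowest of all 12. Mvd rose in halothane relative to isoflurane at 3 MAC by 2.19 (SE 0.34, 95% interval 1.45 to 2.94, 4.57-fold, adjusted p = 0.0156).

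Acat2, the cytosolic thiolase that joins acetyl-CoA units at the head of the pathway, was at 0.56, 0.52 and 0.85 in halothane 3 MAC, at -1.21, -1.64 and -1.62 in isoflurane 3 MAC, at -1.03, -0.90 and -0.91 in halothane 1 MAC, and at -0.89, 0.87 and -0.62 in controls. The control plates spanned much of the distance between the 2 anaesthetics, and control 2 was the highest of the 12 arrays. The difference between halothane and isoflurane at 3 MAC was 2.13 (SE 0.36, 95% interval 1.35 to 2.92, 4.39-fold, adjusted p = 0.0176).

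Idi1, the isomerase that balances the 2 isoprene units, was at 0.24, 0.48 and 0.45 in halothane 3 MAC, at -1.12, -1.54 and -1.01 in isoflurane 3 MAC, at -1.89, -0.98 and -0.85 in halothane 1 MAC, and at -0.98, 0.02 and -0.89 in controls. Here the halothane 3 MAC arrays lay above every other array, control 2 included. Fdps, which condenses the units to farnesyl diphosphate, was at 0.12, -0.09 and -0.02 in halothane 3 MAC, at -1.03, -1.77 and -1.28 in isoflurane 3 MAC, at -1.28, -0.85 and -0.89 in halothane 1 MAC, and at -0.77, 0.21 and -0.46 in controls. Control 2 exceeded the halothane 3 MAC arrays for Fdps. The differences between halothane and isoflurane at 3 MAC were 1.61 for Idi1 (3.05-fold, adjusted p = 0.0233) and 1.36 for Fdps (SE 0.26, 95% interval 0.80 to 1.92, 2.56-fold, adjusted p = 0.0221). Mvk, mevalonate kinase, rose by 1.26 (adjusted p = 0.0318). Pmvk, the kinase that follows it, differed by 0.68 (95% interval 0.15 to 1.21, adjusted p = 0.156) and did not pass the test.

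SREBPs act on promoters together with factors that bind CCAAT boxes (NF-Y) and GGGCGG boxes (Sp1), so the stretch before the start of these genes is shown for those that differed most clearly. Windows of the 250 bases before the start, from RefSeq, were found for 25 of the 32 genes measured, and 15 of those reach into the annotated gene because the table takes 1 of several transcript starts. The 4 below belong to the genes of smallest p between the anaesthetics whose window lies wholly outside the annotated gene, and that of Mvk was added, after its sequence was seen, because it held 5 CCAAT boxes. They are written 5' to 3' on the gene's own strand, in the GRCr8 assembly, with CCAAT or its complement ATTGG and GGGCGG or its complement CCGCCC in capitals. Mvd is on the minus strand (gene chr19:67404911-67414974, window chr19:67414975-67415224), Cyp51 on the plus strand (gene chr4:30991693-31010147, window chr4:30991443-30991692) and Acat2 on the plus strand (gene chr1:50100840-50118886, window chr1:50100590-50100839). Fdps is on the minus strand (gene chr2:176795192-176804816, window chr2:176804817-176805066), as is Mvk (gene chr12:47802002-47819503, window chr12:47819504-47819753).
Mvd: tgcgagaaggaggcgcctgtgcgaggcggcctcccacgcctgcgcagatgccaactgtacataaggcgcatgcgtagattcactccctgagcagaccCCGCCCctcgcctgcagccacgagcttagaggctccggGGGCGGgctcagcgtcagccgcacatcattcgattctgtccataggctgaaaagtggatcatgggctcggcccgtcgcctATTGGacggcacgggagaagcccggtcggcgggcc
Cyp51: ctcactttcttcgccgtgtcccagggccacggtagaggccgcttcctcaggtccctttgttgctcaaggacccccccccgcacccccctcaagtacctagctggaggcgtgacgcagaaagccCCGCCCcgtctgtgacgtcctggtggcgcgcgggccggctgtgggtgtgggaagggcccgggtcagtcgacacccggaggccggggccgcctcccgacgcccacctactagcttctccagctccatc
Acat2: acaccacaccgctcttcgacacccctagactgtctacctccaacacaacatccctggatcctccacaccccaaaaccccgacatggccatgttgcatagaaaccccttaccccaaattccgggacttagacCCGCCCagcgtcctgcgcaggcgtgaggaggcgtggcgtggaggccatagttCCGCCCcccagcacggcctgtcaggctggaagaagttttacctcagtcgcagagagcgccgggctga
Fdps: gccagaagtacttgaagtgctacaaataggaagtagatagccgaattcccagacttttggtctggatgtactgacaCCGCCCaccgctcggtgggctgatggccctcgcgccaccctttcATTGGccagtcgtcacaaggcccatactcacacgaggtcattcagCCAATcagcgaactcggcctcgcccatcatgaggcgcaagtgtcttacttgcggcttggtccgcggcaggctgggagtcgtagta
Mvk: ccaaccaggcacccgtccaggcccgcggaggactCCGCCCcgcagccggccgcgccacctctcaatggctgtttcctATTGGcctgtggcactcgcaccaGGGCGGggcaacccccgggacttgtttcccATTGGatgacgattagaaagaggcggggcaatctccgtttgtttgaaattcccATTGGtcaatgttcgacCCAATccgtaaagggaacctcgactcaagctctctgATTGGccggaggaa

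The CCAAT boxes begin 35 bases before the start in Mvd, 130 and 85 bases before it in Fdps, and between 173 and 14 bases before it in Mvk, while the windows of Cyp51 and Acat2 hold GGGCGG boxes alone. Of the 25 windows 17 held CCAAT on either strand (68%), against 34.3% of the 27457 windows of the whole table, and 21 held GGGCGG (84%), against 32.4%. CCAAT was in 8 of the 11 windows of genes that passed the test between the anaesthetics (72.7%) and in 9 of the 14 of genes that did not (64.3%). GGGCGG was in 8 of the 11 (72.7%) and in 13 of the 14 (92.9%). The sterol response element TCACNCCAC, searched on both strands, was in none of the 25 windows, against 0.976% of all windows. A match says only that the letters are there.

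Between squalene and cholesterol, 6 of 11 enzymes rose in halothane relative to isoflurane at 3 MAC. All 11 lay above 0, as 50.9% of features did. For all 11 the halothane arrays lay wholly above the isoflurane arrays, where 17.9% of features did. Cyp51, lanosterol demethylase, was at 0.53, 0.49 and 0.57 in halothane 3 MAC, at -0.85, -1.21 and -0.96 in isoflurane 3 MAC, at -0.73, -0.70 and -0.64 in halothane 1 MAC, and at -0.48, 0.56 and -0.63 in controls. The 3 plates of each anaesthetic group lay close together, and only the controls were spread out. The difference at 3 MAC was 1.54 (SE 0.26, 95% interval 0.98 to 2.10, 2.90-fold, adjusted p = 0.0176), and the 3 Cyp51 probes gave 1.49 to 1.62.

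Fdft1, squalene synthase, commits the pathway to sterols. It was at 0.27, 0.63 and 0.38 in halothane 3 MAC, at -0.63, -0.68 and -0.69 in isoflurane 3 MAC, at 0.13, 0.04 and 0.24 in halothane 1 MAC, and at 0.05, 0.29 and -0.46 in controls. Unlike most of the genes, its halothane 1 MAC arrays were above the pool, and the isoflurane arrays were the lowest of the 12. Fdft1 rose by 1.10 (SE 0.19, 2.14-fold, adjusted p = 0.0176).

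Nsdhl, a dehydrogenase that takes part in the removal of methyl groups from the sterol ring, was at 0.16, 0.30 and 0.32 in halothane 3 MAC, at -0.72, -0.69 and -0.54 in isoflurane 3 MAC, at -0.79, -0.55 and -0.39 in halothane 1 MAC, and at -0.11, 0.27 and -0.04 in controls. Control 2 lay among the halothane 3 MAC arrays and the other controls lay between the 2 anaesthetics, with the narrowest range of controls among the 15 genes that passed. The difference was 0.91 (SE 0.15, 95% interval 0.57 to 1.25, 1.87-fold, adjusted p = 0.0179), but its 2 probes gave 1.34 and 0.47.

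Hsd17b7, the reductase that acts with Nsdhl, was at 0.51, 0.52 and 0.83 in halothane 3 MAC, at -0.47, -0.99 and -0.86 in isoflurane 3 MAC, at -1.17, -0.55 and -0.69 in halothane 1 MAC, and at -0.30, 0.42 and -0.75 in controls. Msmo1, the methylsterol oxidase of the same steps, was at 0.33, 0.07 and 0.20 in halothane 3 MAC, at -0.52, -1.15 and -0.74 in isoflurane 3 MAC, at -0.66, -0.72 and -0.59 in halothane 1 MAC, and at -0.44, 0.25 and -0.30 in controls. For Hsd17b7 halothane 3 MAC lay above all other arrays, and for Msmo1 control 2 lay among them. The differences at 3 MAC were 1.39 for Hsd17b7 (adjusted p = 0.0254) and 1.00 for Msmo1 (adjusted p = 0.0284). Sqle, squalene epoxidase, rose by 1.35 (adjusted p = 0.0376).

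The other 5 enzymes of this stretch did not pass. Sc5d, a sterol desaturase, was just outside the threshold at 0.89 (adjusted p = 0.0505), as Fasn was just inside it at 1.32 (adjusted p = 0.0450). Ebp, the sterol isomerase, differed by 1.36 (95% interval 0.59 to 2.13, adjusted p = 0.0593) and Tm7sf2, a sterol reductase, by 1.09 (95% interval 0.42 to 1.77, adjusted p = 0.0792). Lss, which closes squalene epoxide to lanosterol, differed by 0.62 (95% interval 0.17 to 1.07, adjusted p = 0.129). Dhcr7, the reductase of the last step, was below the pool on all 3 arrays of both anaesthetics at 3 MAC, with a difference of 0.93 and a wide interval of 0.02 to 1.85 (adjusted p = 0.283).

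**Figure D2:**
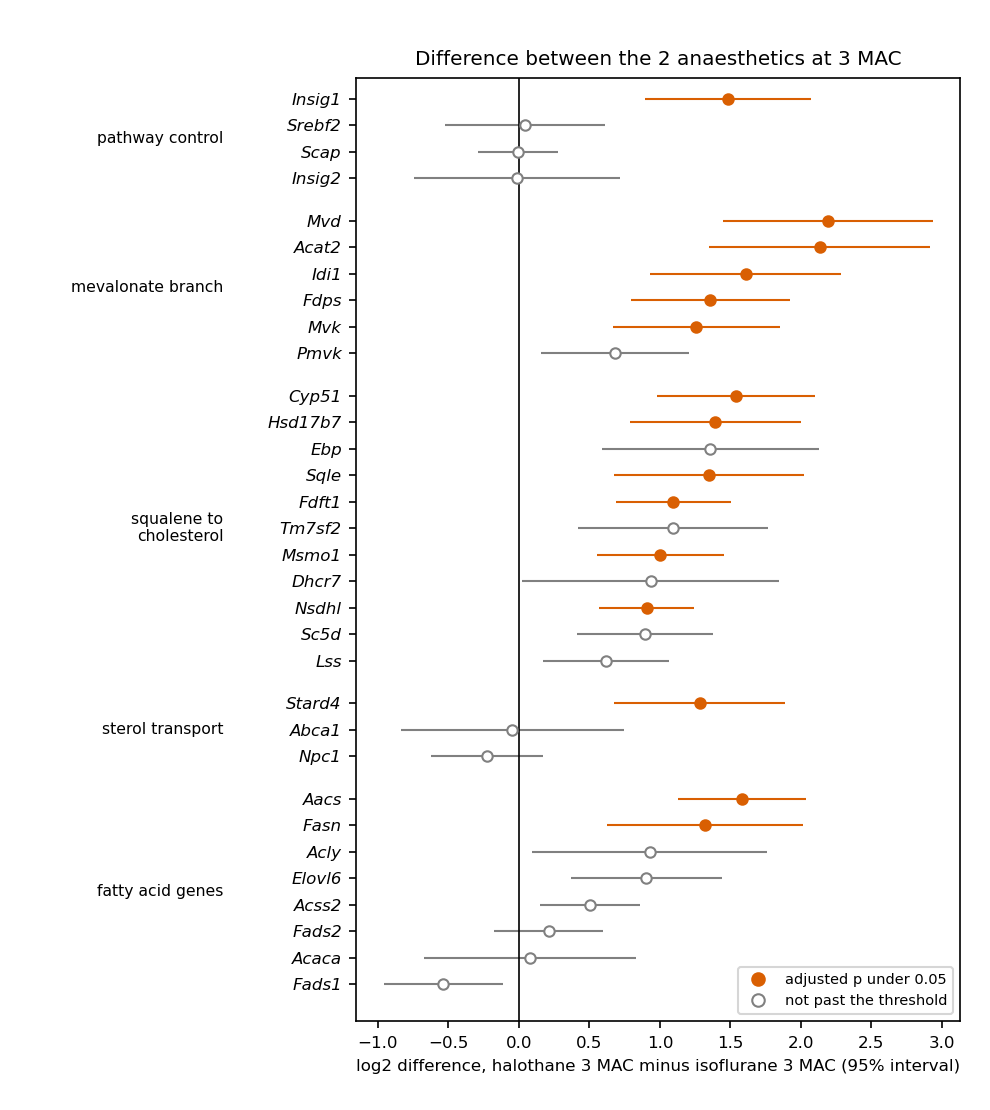
Difference in log2 ratio, halothane 3 MAC minus isoflurane 3 MAC (points), with its 95% interval (lines), for the 32 genes by role; filled points have an adjusted p under 0.05. The 17 enzymes of the mevalonate branch and of the steps from squalene to cholesterol all lie right of 0, at 0.62 to 2.19, while Srebf2, Scap and Insig2 lie within 0.05 of 0.

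Among the genes that control the pathway Insig1 alone passed. INSIG1 holds the SCAP-SREBP complex in the endoplasmic reticulum, and its gene is itself a target of SREBPs. Insig1 was at 0.54, 0.51 and 0.86 in halothane 3 MAC, at -0.56, -0.99 and -0.97 in isoflurane 3 MAC, at -1.30, -0.51 and -0.61 in halothane 1 MAC, and at -0.43, 0.52 and -0.13 in controls. It followed the enzymes, with control 2 at the level of the halothane 3 MAC arrays. The difference at 3 MAC was 1.48 (SE 0.27, 95% interval 0.89 to 2.07, 2.79-fold, adjusted p = 0.0205).

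Insig2, the second INSIG gene, was at 0.42, 0.46 and 0.31 in halothane 3 MAC, at 0.45, 0.29 and 0.48 in isoflurane 3 MAC, at -1.20, 0.37 and 0.39 in halothane 1 MAC, and at 0.42, 0.48 and 0.53 in controls. Outside halothane 1 MAC replicate 1 the arrays lay between 0.29 and 0.53, and the 3 halothane 1 MAC arrays lay below the 3 controls. Its difference at 3 MAC was -0.01, with an interval of -0.74 to 0.72.

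Srebf2, which encodes the SREBP that mainly drives sterol genes, was at 0.07, -0.16 and -0.04 in halothane 3 MAC, at 0.12, -0.22 and -0.15 in isoflurane 3 MAC, at 0.93, -0.25 and -0.12 in halothane 1 MAC, and at 0.13, 0.14 and -0.04 in controls. Scap, the escort, was at -0.10, -0.02 and -0.13 in halothane 3 MAC, at -0.13, -0.11 and 0.00 in isoflurane 3 MAC, at 0.30, 0.20 and 0.12 in halothane 1 MAC, and at 0.10, -0.22 and 0.02 in controls. Both overlapped between the 2 anaesthetics at 3 MAC. The difference was 0.05 for Srebf2 (interval -0.52 to 0.61) and -0.01 for Scap (interval -0.29 to 0.28), and neither interval shows that the anaesthetics act alike. Cutting and movement of the SREBP protein were not measured.

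In sterol transport, Stard4, a soluble carrier that moves cholesterol between membranes, was at 0.50, 0.37 and 0.50 in halothane 3 MAC, at -0.46, -1.37 and -0.66 in isoflurane 3 MAC, at -0.97, -0.86 and -0.79 in halothane 1 MAC, and at -0.85, 0.22 and -0.04 in controls. The halothane 3 MAC arrays lay above all the others. Stard4 rose by 1.28 between halothane and isoflurane at 3 MAC (adjusted p = 0.0324), and its 3 probes gave 1.03, 1.14 and 1.68. Npc1, which exports cholesterol from lysosomes, differed by -0.22 (adjusted p = 0.654), with 0.01 and -0.46 from its 2 measured probes, and Abca1, which exports cholesterol from the cell, differed by -0.05 (adjusted p = 0.985).

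Of the 8 fatty acid genes, 2 passed. Aacs, which activates acetoacetate so that ketone bodies can feed lipid synthesis, had the smallest p of the 32 genes, with 8 of the 16546 features below it. It was at 0.60, 0.39 and 0.60 in halothane 3 MAC, at -0.87, -1.31 and -0.97 in isoflurane 3 MAC, at -0.35, -0.58 and -0.67 in halothane 1 MAC, and at -0.40, 0.32 and -0.37 in controls. The halothane 3 MAC arrays were above all others, the isoflurane arrays below all others. The difference was 1.58 (SE 0.21, 95% interval 1.13 to 2.03, 2.99-fold, adjusted p = 0.0116). Fasn, fatty acid synthase, rose by 1.32 (95% interval 0.62 to 2.01, adjusted p = 0.0450).

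The other 6 ranged widely. Elovl6, which lengthens palmitate, differed by 0.90 (adjusted p = 0.0678), Acly, which makes cytosolic acetyl-CoA from citrate, by 0.93 (adjusted p = 0.232), and Acss2, which makes it from acetate, by 0.50 (adjusted p = 0.122). In these 3 genes the halothane arrays lay wholly above the isoflurane arrays, where 17.9% of features did. Acaca, which makes malonyl-CoA, differed by 0.08 (interval -0.68 to 0.83), and Fads2, a desaturase of polyunsaturated fatty acids, by 0.21 (interval -0.18 to 0.60). Fads1, the partner desaturase, ran the other way, at 0.02, -0.20 and -0.12 in halothane 3 MAC and at 0.36, 0.50 and 0.44 in isoflurane 3 MAC, with a difference of -0.54 (95% interval -0.96 to -0.12, adjusted p = 0.164). Its halothane arrays lay wholly below its isoflurane arrays, as in 19.5% of features, and it did not pass the test.

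The calls between the 2 anaesthetics depended on having 3 plates of each. Without any 1 of the 3 halothane 3 MAC arrays none of the 32 genes passed, where 0 to 0.00604% of all features did. Without isoflurane replicate 3 none of them passed (0.0363% of all features). Without isoflurane replicate 1 or 2 only Aacs did (0.193% and 0.369% of all features). The median difference of the 32 genes stayed between 0.88 and 1.07. The 15 calls also used the spread of the other groups: without halothane 1 MAC replicate 1, 22 genes passed, the 15 among them, where 12.4% of all features did. Without that array and control 2 together, 24 genes and 18.1% of all features passed.

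Against control, isoflurane at 3 MAC was lower for most of the genes, but none passed the test. Of the 32 genes 29 lay below control, where 49.4% of features did, with a median difference of -0.61 against 0.00 for all features. limma called 0 of the 32 after adjustment (background 0.0725%, 12 features), and 14 had an unadjusted p under 0.05 and were lower (background 3.35%). For 15 genes all 3 isoflurane arrays lay below all 3 controls (background 9.93%), and for none above (background 12.8%). The 5 genes of smallest p were Nsdhl at -0.69 (SE 0.15, adjusted p = 0.128), Aacs at -0.90 (SE 0.21, adjusted p = 0.137), Fdps at -1.02 (SE 0.26, adjusted p = 0.151), Mvd at -1.35 (SE 0.34, adjusted p = 0.151) and Acat2 at -1.28 (SE 0.36, adjusted p = 0.202). Without halothane 1 MAC replicate 1, Aacs and Nsdhl passed, with 2.33% of all features.

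Halothane at 3 MAC was higher than control for 25 of the 32 genes, where 51.1% of features were, with a median difference of 0.44 against 0.00 for all features. limma called 0 features of all 16546 after adjustment (background 0%), and 11 of the 32 genes had an unadjusted p under 0.05 and were higher (background 3.34%). The 3 halothane arrays lay above the 3 controls for 7 genes (background 9.13%) and below them for 1, Fads1 (background 6.97%). The smallest p-values belonged to Aacs at 0.68 (SE 0.21), Idi1 at 1.00 (SE 0.31), Hsd17b7 at 0.83 (SE 0.28) and Sc5d at 0.65 (SE 0.22), each with an adjusted p of 0.694, and to Cyp51 at 0.71 (SE 0.26, adjusted p = 0.706). Without control 2 the median difference was 0.74 and 7 genes passed, namely Aacs, Acat2, Cyp51, Hsd17b7, Idi1, Mvd and Sc5d, where 2.81% of all features did.

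The median differences from control therefore varied with the control plate, in size for isoflurane 3 MAC and in size and direction for halothane 3 MAC. Single genes changed sign in every group. For isoflurane 3 MAC, 3, 1 and 5 of the 32 genes had another sign against controls 1, 2 and 3 than against all controls. For halothane 3 MAC these counts were 3, 13 and 1, and for halothane 1 MAC they were 6, 2 and 6. For halothane 3 MAC, the median difference of the 17 sterol synthesis enzymes was 0.85 from control 1, -0.03 from control 2 and 0.79 from control 3, with 17, 7 and 17 of the 17 above 0. For isoflurane 3 MAC it was -0.43 from control 1, -1.24 from control 2 and -0.50 from control 3, with 16, 17 and 16 of the 17 below 0. All 3 isoflurane arrays lay below control 1 for 21 of the 32 genes (29.7% of all features), below control 2 for 26 (32.3% of all features) and below control 3 for 23 (29.4% of all features). Isoflurane was thus below each control plate in most of these enzymes, and halothane 3 MAC was above 2 of the 3.

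**Figure D3:**
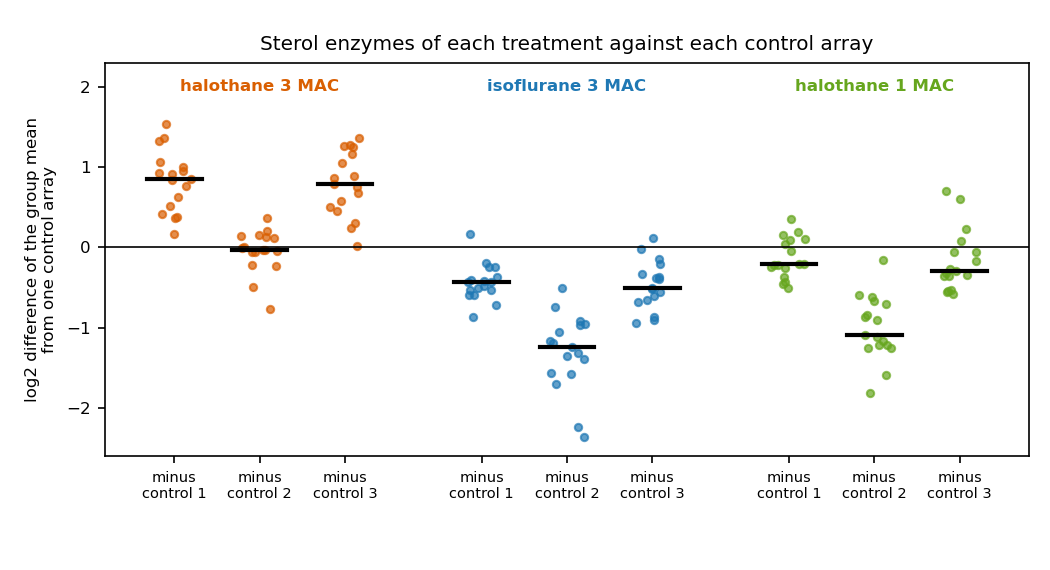
Difference in log2 ratio of the group mean from each control array in turn, for halothane 3 MAC, isoflurane 3 MAC and halothane 1 MAC; each point is 1 of the 17 sterol synthesis enzymes and each bar their median. The isoflurane medians are below 0 against all 3 controls, at -0.43, -1.24 and -0.50, and the halothane 3 MAC median falls to -0.03 against control 2.

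Halothane at 1 MAC was lower than control for 26 of the 32 genes, where 39.2% of features were, with a median difference of -0.44 against 0.08 for all features. limma called 0 of all 16546 features (background 0%), and 9 of the 32 genes had an unadjusted p under 0.05 and were lower (background 2.53%). For 9 genes all 3 arrays lay below the 3 controls (background 3.9%), and for 1, Scap, above (background 6.29%). The 5 of smallest p were Nsdhl at -0.61 (SE 0.15), Insig1 at -0.80 (SE 0.27), Pmvk at -0.71 (SE 0.24), Acly at -1.02 (SE 0.38) and Fdps at -0.67 (SE 0.26), each with an adjusted p of 0.626. The median difference was -0.39 without halothane 1 MAC replicate 1 and -0.17 without control 2. For the 17 sterol synthesis enzymes it was -0.21 from control 1, -1.10 from control 2 and -0.29 from control 3.

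Between the 2 doses of halothane the genes were higher at 3 MAC than at 1 MAC in 26 of 32 cases, where 41.4% of features were, with a median difference of 0.81 against -0.08 for all features. limma called 0 features (background 0%), but 20 of the 32 genes had an unadjusted p under 0.05 and were higher at 3 MAC (background 7.93%), and 1, Scap, was lower (background 10.6%). For 20 genes all 3 arrays at 3 MAC lay above all 3 at 1 MAC (background 12.2%), and for 1, Scap, below (background 15.4%). The 5 of smallest p were Insig1 at 1.45 (SE 0.27), Nsdhl at 0.83 (SE 0.15), Idi1 at 1.63 (SE 0.31), Aacs at 1.07 (SE 0.21) and Hsd17b7 at 1.42 (SE 0.28), each with an adjusted p of 0.0607. Without halothane 1 MAC replicate 1 the median difference was 0.82 and still none passed, where 0.417% of all features did. Without control 2, which changes only the estimate of the spread, 16 passed, where 4.22% of all features did. This comparison shares its 3 MAC arrays with the comparison of the 2 anaesthetics, so the values of the genes are given side by side: Mvd was 1.54 against halothane 1 MAC and 2.19 against isoflurane 3 MAC, Acat2 1.59 and 2.13, and Fdft1 0.29 and 1.10.

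Over all 4 groups, 1 gene of the 32, Aacs, passed the F-test (adjusted p = 0.0423, background 0.205%), and 22 had an unadjusted p under 0.05 (background 17.7%). None of the 32 passed without any 1 halothane 3 MAC array, isoflurane array, control 1, or halothane 1 MAC replicate 2 or 3. In those settings 0.00604% to 0.121% of all features passed. The calls among the 32 rose to 8 without control 3 (1.83% of all features). They were 16 without halothane 1 MAC replicate 1 (5.61% of all features) and 17 without control 2 (4.97% of all features).

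Most of the genes moved together across plates. The group means ran in the order halothane 3 MAC, control, halothane 1 MAC, isoflurane for 16 of the 32 genes, and in 24 halothane 3 MAC was the highest and in 21 isoflurane the lowest. Pearson's r was taken over the 11 arrays other than halothane 1 MAC replicate 1, which share the pool. It set a gene against the mean of the sterol synthesis enzymes, with the gene itself left out of that mean. The r was above 0.8 in 23 of the 32 genes, and 16 of these are among the 17 enzymes. Cyp51 and Mvk were at 0.99, Aacs at 0.99 without being among them, and Insig1 at 0.98. The genes with the least likeness were Srebf2 at 0.42, Insig2 at 0.14, Abca1 at -0.27, Scap at -0.41, Npc1 at -0.52 and Fads1 at -0.84. The r describes these 11 arrays, which fall into 4 groups. Neither the orders nor the r were computed for all features, so these counts have no background and do not set the 32 genes apart.

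Genes of other cell types and of the cell cycle moved with the same plates. The mean log2 ratio of the 17 sterol synthesis enzymes was 0.25 to 0.37 in halothane 3 MAC, -1.22 to -0.75 in isoflurane 3 MAC, -0.69 to -0.59 in halothane 1 MAC, and -0.52, 0.35 and -0.49 in the controls. That of 10 of 12 astrocyte markers was -1.04 to -0.91 in halothane 3 MAC, 0.13 to 0.24 in isoflurane 3 MAC, 0.10 to 0.14 in halothane 1 MAC, and 0.28, -0.89 and 0.21 in the controls. That of 9 of 10 cell cycle genes was 0.89 to 0.99 in halothane 3 MAC, -0.97 to -0.10 in isoflurane 3 MAC, -0.31 to -0.13 in halothane 1 MAC, and -0.56, 0.73 and -0.96 in the controls. Control 2 thus lay near the halothane 3 MAC plates in all 3 lists.

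Between halothane and isoflurane at 3 MAC, 4 of the 10 astrocyte markers were lower, with Gfap, the astrocyte filament gene, at -2.94 (adjusted p = 0.0170), and 1, Aldh1l1, was higher. Of the 9 cell cycle genes 4 were higher and none lower, and of 10 of 12 neuron markers 2 were higher, Gad1 and Dcx. The mean of the neuron markers was 0.00 to 0.09 in halothane 3 MAC, -0.18 to -0.06 in isoflurane 3 MAC, -0.42 to -0.16 in halothane 1 MAC, and -0.18 to 0.11 in the controls. Oligodendrocyte, microglia and endothelial markers, with 10, 5 and 5 genes measured, had no call in this comparison. The part of these shifts in the differences of the lipid genes was not tested.

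**Figure D4:**
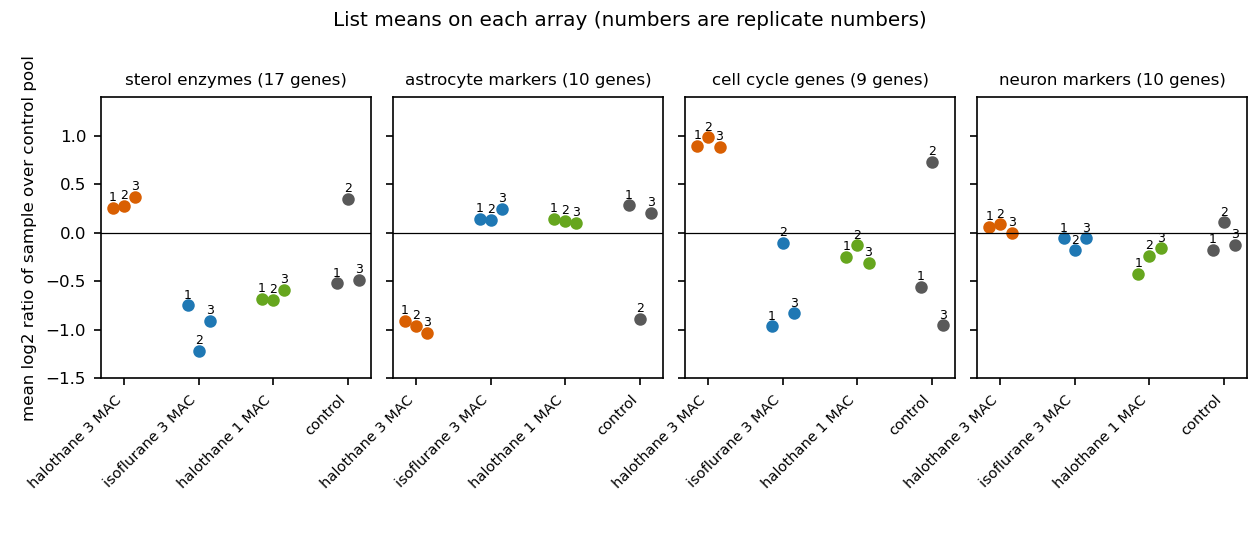
Mean log2 ratio of plate over pool on each array for the 17 sterol synthesis enzymes and for the astrocyte, cell cycle and neuron genes; each point is an array with its replicate number, by group along the x axis. Control replicate 2 lies near the halothane 3 MAC arrays for the enzymes (0.35 beside 0.25 to 0.37), the astrocyte markers (-0.89 beside -1.04 to -0.91) and the cell cycle genes (0.73 beside 0.89 to 0.99).

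Of 41 other genes of lipid handling, 31 were measured, and their median difference between halothane and isoflurane at 3 MAC was -0.10, with 3 higher and 2 lower after adjustment. Higher were Slc25a1, the mitochondrial citrate carrier that feeds cytosolic acetyl-CoA, at 1.27 (adjusted p = 0.0267), Tmem97, a sterol-regulated membrane protein that binds NPC1, at 0.91 (adjusted p = 0.0216), and Scarb1, the receptor for high-density lipoprotein, at 0.68 (adjusted p = 0.0251). Lower were Acadl, an enzyme of fatty acid oxidation, at -1.24 (adjusted p = 0.0360), and Lipa, the acid lipase that frees cholesterol in lysosomes, at -0.83 (adjusted p = 0.0254). Apoe, the main apolipoprotein of the brain and largely made by astrocytes, was at -1.51 (adjusted p = 0.0501) and did not pass. In the other comparisons none of the 31 passed.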

How the data were processed

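The deposited values, per the file headers and labels, were 1 log ratio per spot and array for 21575 spots on 12 two-channel Agilent arrays, taken as log10 ratios from the authors; Partek is named in the submitters' processing notes, and the labels state neither background correction nor normalization. They were multiplied by 3.32 to give log2. Exact zeros (15439 values, 5.96%), which the deposited table seems to use for unmeasured spots, were set to missing, and 471 spots that sat at the limit of the scale, 100-fold, on 10 or more arrays were left out. One gene symbol was given for 12750 spots (59.1%), several for 5 and none for 8820, and 12720 matched RefSeq. Probes of a gene measured on all 12 arrays were averaged, and a feature needed values on 2 arrays per group.

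limma 3.58.1 in R 4.3.3 fitted 4 group means (8 residual degrees of freedom), with two-sided moderated tests and Benjamini-Hochberg adjustment over all features at a threshold of 0.05. The fit was tested on simulated data with independent normal noise and, for each feature, the same spread on all arrays. Those data held no outlying array, so that test does not bear on how the calls depend on single arrays. Groups came from the labels. P-values measure the spread between plates, whose rats are not given. Only 3 arrays per group limit the precision. Genes with full statistics were, in each comparison, up to 8 past the threshold by p or otherwise the 5 of smallest p, and per-array values were given for the 12 of smallest p in the F-test and for the genes of pathway control. The genes, lists and tests were chosen with earlier results of these data known. Replicate numbers were not used to pair the plates in the main fit. Alternatives were the handling of zeros, probe averaging, centring, scaling, quantile normalization, moderation, array weights, a replicate block, the filter, the threshold, the groups fitted and each array left out. Promoter windows came from RefSeq (GRCr8). Figures were drawn with matplotlib 3.10.9.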

Additional observations from a re-analysis of the deposited data

How the results depend on the processing

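None of 672 values of single genes under the alternatives changed direction, with 571 on the same side of the threshold. These were the genes with full statistics, chosen by p, so a stable direction was likely from the start. Some alternatives cannot change a difference at all, such as the threshold, the moderation or leaving out an array of a group not compared. The 672 values do not cover 1 control alone. Against control 2 alone, 13 of the 32 genes had another sign for halothane 3 MAC than against all controls, Cyp51 among them at -0.03. For isoflurane 3 MAC, 3, 1 and 5 of the 32 had another sign against controls 1, 2 and 3 alone. The number of genes past the threshold moved more, as did the share of all features that passed, which is in parentheses where given. For halothane against isoflurane at 3 MAC (15 genes, 3.51%) the number was 25 with array weights (26.5%). It was 24 with only the 2 groups fitted (17%) and 1 without moderation of variances (0.133%). Without halothane 1 MAC replicate 1 and control 2, a setting chosen after seeing the data, it was 24 (18.1%). Leaving out 1 array gave 0 to 22 genes (0 to 12.4%). For halothane at 3 against 1 MAC (0 genes, 0%) the number was 24 with array weights (25.4%). It was 10 with only the 2 groups (1.79%), 6 with quantile normalization (0.907%) and 19 without both arrays (9.89%). Leaving out 1 array gave 0 to 16 genes (0 to 4.22%). The median of 0.81 was 0.86 with array weights, 0.89 centred and 0.87 centred and scaled. It was 0.93 after quantile normalization and 0.77 to 0.86 leaving out 1 array. For halothane 3 MAC against control (0 genes, 0%) the number was 10 with array weights (4.38%) and 14 without both arrays (10.8%). Leaving out 1 array gave 0 to 7 genes (0 to 2.81%). The median was -0.00089 against control 2 alone, 0.74 without both arrays and 0.27 to 0.74 leaving out 1. For isoflurane against control (0 genes, 0.0725%) the number was 2 with array weights (2.09%) and 1 without both arrays (1.63%). Leaving out 1 array gave 0 to 2 genes (0.00604% to 2.33%). The median was -1.01 against control 2 alone and -0.75 to -0.35 leaving out 1. For halothane 1 MAC against control the median was -0.13 against control 1 alone, -0.86 against control 2 alone, -0.15 without both arrays and -0.59 to -0.17 leaving out 1. In the F-test (1 gene, 0.205%) the number was 22 with array weights (15.1%) and 23 without both arrays (17.8%). It was 0 with zeros kept (0.00555%), with scaling (0.0423%), with quantile normalization (0.0121%) or without moderation (0.0665%). Leaving out 1 array gave 0 to 17 genes (0.00604% to 5.61%). The cause was not tested.

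The labels give 4 plates from each of 3 rats and do not say whether a rat supplied every group. They tie no replicate number to a rat, and plates of 1 number had correlations of -0.08 to 0.10. With the replicate number as a block, 12 of the 15 genes passed between the anaesthetics at 3 MAC, where 2.6% of all features did. None of the genes passed the F-test, where 0.00604% of all features did. Over all features the calls moved too, across the settings: from 0 to 4390 between the anaesthetics, 0 to 4209 between the halothane doses, 0 to 1791 for halothane 3 MAC, 1 to 386 for isoflurane and 0 to 4 for halothane 1 MAC against control, and 1 to 2943 in the F-test. Ratios carry no signal over background here, so what dim probes limit was not analysed.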
